A study of Mus musculus with 36 samples.

Results

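Myogenic regulators and the Id proteins that oppose them were followed in mouse diaphragm through 6 genes: Myog, Myod1 and Myf6 on one side, and Id1, Id2 and Id3 on the other. All probe sets whose annotation gave one of these symbols were taken, a probe set being the group of short probes that reports 1 transcript. Each symbol had 1 probe set, so there were 6 probe sets among the 12422 on the array that are not controls. All 6 were among the 9291 probe sets tested, and for 5 of them the signal passed the filter level of 374.5 on all 36 arrays. The exception was Myog, which passed it on 35. The probe sets were 103053_at for Myog, 102986_at for Myod1, 102265_at for Myf6, 100050_at for Id1, 93013_at for Id2 and 92614_at for Id3.

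Total RNA of the diaphragm, the main muscle of breathing, was hybridised to 1-colour Affymetrix arrays. Control mice, called wild type in the title of the series, were compared with mdx mice, which carry a mutation in the dystrophin gene Dmd and lack the full-length protein in muscle. Both genotypes were sampled at 7, 14, 23, 28, 56 and 112 days of age, with 3 arrays in each of the 12 groups and no treatment named. The labels give no strain, sex or pooling, and the replicates are only numbered, so a p-value measures only how far these arrays scatter, which can be technical.

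MyoD, myogenin and MRF4 (the products of Myod1, Myog and Myf6) are transcription factors of the basic helix-loop-helix (bHLH) family that turn on muscle genes. They bind DNA motifs called E-boxes as pairs with broadly expressed E proteins. Id proteins have the helix-loop-helix but not the basic region that touches DNA, so they bind E proteins and keep them away from E-boxes. MyoD acts early, in activated satellite cells (the stem cells of muscle) and myoblasts, myogenin drives the step to fusing myocytes, and MRF4 is the family member best known from mature fibres. In mdx muscle, fibres break down and are rebuilt in repeated rounds that begin around weaning.

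The arrays carried muscle RNA by their markers. Of 13 genes of contractile fibres, such as the creatine kinase gene Ckm, 11 lay above 374.5 on all 36 arrays. The probe set for Dmd was lower in mdx arrays by a mean log2 difference over the 6 ages of -1.01 ± 0.122 (SE; limma, adjusted p = 2.22e-07). Median signals of single arrays lay between 450.6 and 723.4, with values of 663 to 687.9 on the arrays of 14 days against 450.6 to 515.2 on those of 23 days. On 9 arrays the liver gene Alb exceeded a signal of 10000, among them 2 control and 1 mdx array of 14 days and none of 23 days. Within groups, arrays correlated with r from 0.884 to 0.975. Signals below are scaled intensities without a physical unit, and a difference is on the scale of log2(signal + 32). A gene is said to have risen or fallen where limma gave a Benjamini-Hochberg adjusted p under 0.05 over the 9291 probe sets. In bulk tissue, fewer cells of a type and less RNA per cell cannot be told apart.

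Between genotypes, 3 of the 6 genes rose in mdx diaphragm at every age from 23 days on, and these were Myog, Myod1 and Id2. None of the 6 rose or fell at 7 or 14 days. Myf6, Id1 and Id3 did not pass the test at any age, although Id1 passed at single ages under some other settings given below. At 7 days 0 of 6 passed, where 0.463% of all probe sets did, and 1 of 6 had an unadjusted p under 0.05 in limma. At 14 days 0 of 6 passed, where 0.194% of all probe sets did, and 2 of 6 had an unadjusted p under 0.05. At 23 days 3 of 6 rose, where 2.68% of all probe sets rose and 3.49% rose or fell. The same 3 genes rose at 28 days (2.42% rose, 2.96% rose or fell), at 56 days (9.27% and 16.7%), at 112 days (7.65% and 12.2%) and over the mean of the 6 ages (10.4% and 17.8%). Over all 9291 probe sets, 113 (1.22%) rose at each of the 4 later ages, and Myog, Myod1 and Id2 were among them. The median log2 difference of the 6 genes was 0.38 at 23 days, 0.42 at 28 days, 0.32 at 56 days and 0.59 at 112 days. The medians over all tested probe sets at those ages were -0.01, -0.04, 0.15 and 0.02. Results with adjusted p between genotypes below are from limma with Benjamini-Hochberg adjustment.

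**Figure D1:**
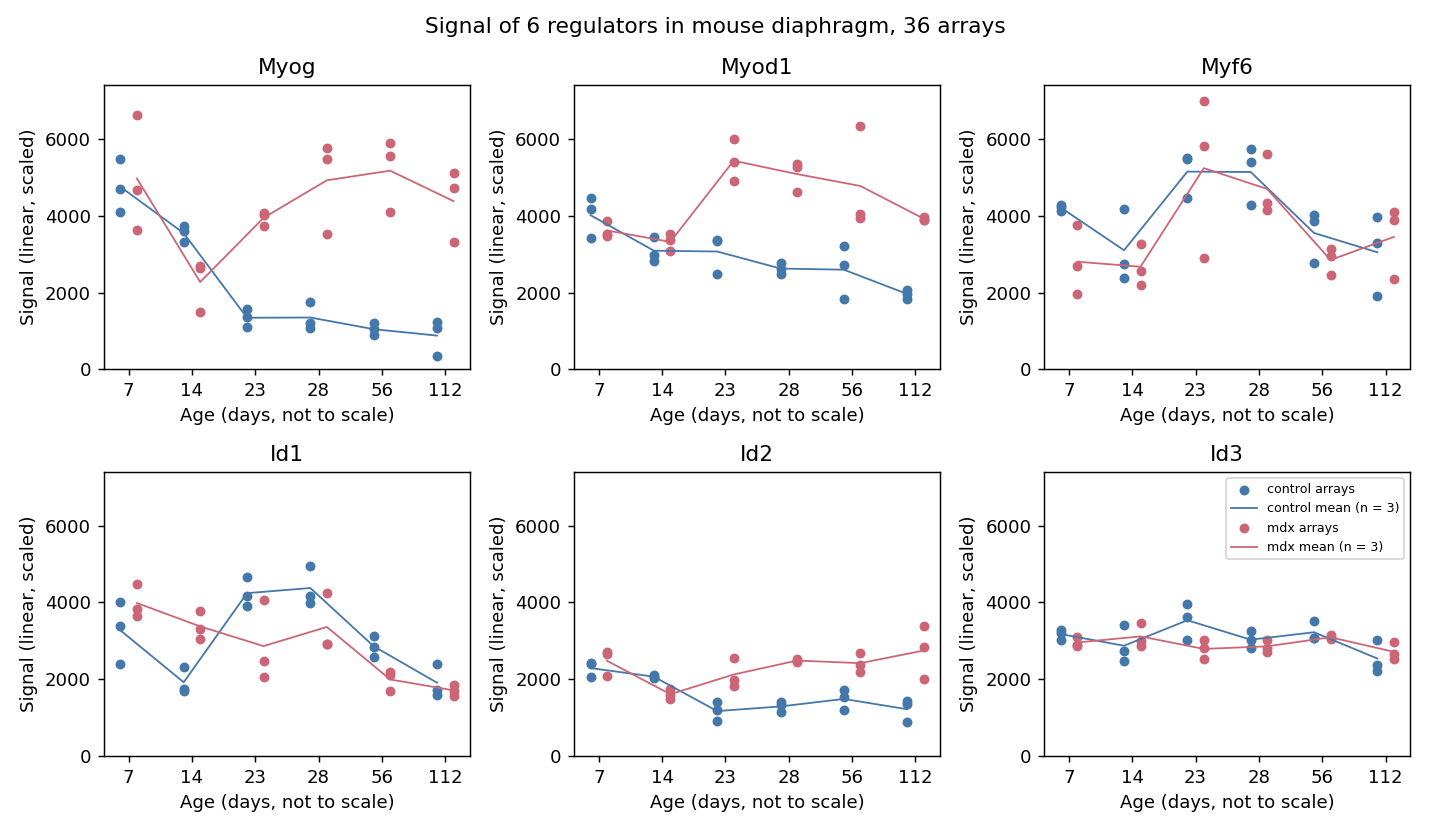
Signal of each of the 6 genes on all 36 arrays (linear scale, no unit) against age in days (ages evenly spaced, not to scale); points are single arrays and lines join the means of 3 arrays, for control and mdx diaphragm. Myog fell in control diaphragm to a mean of 881.2 at 112 days while the mdx mean there was 4378, and Id3 stayed between 2229 and 3949 on all arrays.

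Myog encodes myogenin, the factor of terminal differentiation. The 250 bases before its annotated start in RefSeq (GRCm38.p6, chr1:134289754-134290003, plus strand) are shown because Myog gave the largest genotype difference of the 6 genes at each age from 23 days, and because its promoter can be read for the sites of its own family. Capitals mark matches, on either strand, to the E-box CANNTG and to the MEF2 motif with any base allowed at its last place.
Myog: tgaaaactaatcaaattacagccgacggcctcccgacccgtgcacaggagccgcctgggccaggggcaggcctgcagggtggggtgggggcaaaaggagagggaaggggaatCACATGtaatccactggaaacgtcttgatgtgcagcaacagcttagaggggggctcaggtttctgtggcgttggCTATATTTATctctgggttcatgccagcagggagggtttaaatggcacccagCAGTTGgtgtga
The window held 2 E-boxes, at 138 to 133 and at 12 to 7 bases before the start, and 1 MEF2 match at 64 to 55 bases before it, with no overlap between them. An E-box was found in 66.2% and a MEF2 match in 7.03% of 32851 promoter windows of this length. A match describes letters only and does not show binding. RefSeq promoter windows were matched for 3 of the 6 genes, Myog, Id2 and Id3, and Myod1, Myf6 and Id1 are named without one.

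At 7 days Myog read 4689, 5468 and 4093 on the control arrays and 4665, 3622 and 6622 on the mdx arrays. The mdx values lay on both sides of the controls and the groups overlapped. At 14 days the control arrays read 3600.3, 3723 and 3313 and the mdx arrays 1492, 2644 and 2689. All 3 mdx arrays were below all 3 controls, and the mean was 1.56 times as high in controls, but the log2 difference of -0.68 ± 0.305 (SE) missed the threshold (unadjusted p = 0.0333, adjusted p = 0.698). Without mdx replicate 1, which read 1492, it was -0.41 (adjusted p = 0.999). At 23 days the order had turned: the controls read 1581, 1354 and 1100.4 and the mdx arrays 4028, 3738 and 4063. The groups lay far apart, with mdx above control by 2.93-fold and a log2 difference of 1.54 ± 0.305 (adjusted p = 0.00195).

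The later ages kept that order for Myog. At 28 days the controls read 1763, 1209.5 and 1082 and the mdx arrays 5751.5, 3527 and 5481.5. At 56 days the controls read 1211.5, 889 and 1045, the mdx arrays 5880.1, 5540.2 and 4089.9. At 112 days the controls read 1074, 343 and 1227 and the mdx arrays 5105, 4719 and 3311.5. At none of these 3 ages did an mdx array reach down to a control. The ratio of means was 3.64 at 28 days, 4.93 at 56 days and 4.97 at 112 days. The log2 differences were 1.84, 2.26 and 2.43, each ± 0.305, with adjusted p of 0.000189, 3.92e-06 and 9.46e-07. One control array of 112 days stood low at 343, and without it the difference there was 1.88 (adjusted p = 2.29e-05). The increase from 23 to 112 days in the genotype difference, 0.89, did not pass (adjusted p = 0.421).

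The control level of Myog fell with age. From 7 to 112 days the control level fell by 2.56 on the log2 scale (adjusted p = 1.01e-07), from a mean of 4750.4 ± 689.5 (SD, n = 3) to 881.2 ± 472.7. The mdx level went from 4969 ± 1523 to 4378 ± 944, a log2 change of -0.16 that did not pass (adjusted p = 0.777). The highest group mean of Myog was the mdx group of 56 days (5170.1) and the lowest the control group of 112 days, 5.87-fold apart. Of the 11 pairs of neighbours in the order of the 12 group means, 9 overlapped.

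Myod1 encodes MyoD, which commits cells to the muscle lineage. At 7 days the control arrays read 4447, 4168 and 3423 and the mdx arrays 3470.2, 3517 and 3860; at 14 days they read 3456, 2981.5 and 2831.5 against 3078, 3522 and 3356. Both ages showed overlapping groups, with log2 differences of -0.14 and 0.11 (SE 0.165; adjusted p = 0.808 and 0.993). At 23 days the controls read 3376, 2476 and 3351.5 and the mdx arrays 5391, 5996 and 4900.1. The lowest mdx array was above the highest control, by a ratio of means of 1.77 and a log2 difference of 0.83 ± 0.165 (adjusted p = 0.00221).

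At 28 days Myod1 read 2624.5, 2769.9 and 2481 in controls against 4620.5, 5354 and 5271 in mdx. At 56 days it read 3214, 1841 and 2730.2 against 6319.9, 3949 and 4049. At 112 days it read 1973.5, 1845 and 2071 against 3975, 3893 and 3899, the tightest mdx group of the 6 ages for this gene (SD 45.6). The groups did not overlap at any of these ages, and the ratios of means were 1.94, 1.84 and 2.0. The log2 differences of 0.94, 0.87 and 0.99 (each ± 0.165) had adjusted p of 0.000405, 0.000398 and 8.62e-05, and the one at 56 days was lost with only the arrays of that age in the fit (adjusted p = 0.0526). As with Myog, the control level fell from 7 to 112 days (log2 change -1.01, adjusted p = 1.59e-05), and in mdx the change was 0.12 (adjusted p = 0.687). Over the 4 later ages the differences for Myod1 stayed between 0.83 and 0.99, while those of Myog ran from 1.54 to 2.43.

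Myf6 encodes MRF4. Its lowest array read 1904, in the control group of 112 days, and its highest 6987, in the mdx group of 23 days. At 7 days the control arrays read 4237, 4283 and 4115 and the mdx arrays 1971, 2683 and 3756, with no overlap and a mdx mean 0.666 times that of the controls. The log2 difference of -0.63 ± 0.279 did not pass (unadjusted p = 0.0314, adjusted p = 0.415). At the other 5 ages the groups overlapped, and the log2 differences lay between -0.30 and 0.20 with adjusted p from 0.472 to 0.992. In both genotypes the level rose from 14 to 23 days, by a log2 change of 0.76 in controls (adjusted p = 0.0261) and 0.89 in mdx (adjusted p = 0.012). These calls were lost in 4 of 6 and 3 of 6 cases in which 1 array was left out. In controls the call was also lost with quantile normalization (0.67, adjusted p = 0.0608). Both calls were lost with the median signal as covariate (0.30 and 0.49), which cannot be separated from age over this interval. The change in the genotype difference over that interval was 0.13 (adjusted p = 0.959). One mdx array of 23 days read 2912 and the other two 5813 and 6987, so the mdx SD at that age was 2097.

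The Id proteins did not move as a group. Id2 gave a genotype difference of the same sign as Myog from 14 days on, Id1 one of the opposite sign at 14, 23, 28, 56 and 112 days, and Id3 differences of at most 0.33 on the log2 scale in either direction. Promoter windows are shown for Id2 and Id3, the one that rose in mdx diaphragm and one that did not, so that their letters can be compared. Capitals mark matches on either strand to CANNTG, the MEF2 motif, CCAAT and GGCGCC. The Id2 window lies at chr12:25096093-25096342 (minus strand) and the Id3 window at chr4:136143572-136143821 (plus strand), both in GRCm38.p6 and from RefSeq.
Id2: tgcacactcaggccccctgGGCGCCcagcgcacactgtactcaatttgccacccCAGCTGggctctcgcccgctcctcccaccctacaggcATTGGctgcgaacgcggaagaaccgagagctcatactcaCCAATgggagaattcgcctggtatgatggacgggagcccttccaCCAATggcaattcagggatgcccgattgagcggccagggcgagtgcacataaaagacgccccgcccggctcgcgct
Id3: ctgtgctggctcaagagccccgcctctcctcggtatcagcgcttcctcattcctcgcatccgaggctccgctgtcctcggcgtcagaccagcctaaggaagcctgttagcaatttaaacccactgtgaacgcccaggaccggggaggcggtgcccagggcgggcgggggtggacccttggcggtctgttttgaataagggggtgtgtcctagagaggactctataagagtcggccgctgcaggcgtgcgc
The Id2 window held 1 E-box at 196 to 191 bases before the start, 3 CCAAT matches and 1 GGCGCC, and no MEF2 match. The Id3 window held none of the 4 motifs. CCAAT was found in 33.8% and GGCGCC in 9.59% of all windows. G and C made up 62.8% of both windows and 56.4% of that of Myog.

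Id2, which binds E proteins and also retinoblastoma family proteins, read 2436, 2052 and 2389 in control and 2656, 2698 and 2093.5 in mdx arrays of 7 days. At 14 days it read 2115, 2064 and 2029 against 1759, 1602 and 1479. The groups overlapped at 7 days (log2 difference 0.11, adjusted p = 0.877). At 14 days every mdx array was below every control, but the difference of -0.36 ± 0.184 did not pass (adjusted p = 0.796). At 23 days the controls read 1401, 925 and 1197 and the mdx arrays 2552, 1830.4 and 1995. The groups were apart in the other direction, with mdx 1.81-fold higher and a log2 difference of 0.84 ± 0.184 (adjusted p = 0.00548). This call was lost without control replicate 2 of 23 days (0.69, adjusted p = 0.0659) or without mdx replicate 1 of 23 days (0.71, adjusted p = 0.083), and with only the arrays of 23 days in the fit (adjusted p = 0.0627).

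At 28 days Id2 read 1342, 1398 and 1145 in controls against 2532, 2471.5 and 2461 in mdx. At 56 days it read 1724, 1196 and 1550.1 against 2187, 2694 and 2381. At 112 days it read 885, 1426 and 1357 against 3380.3, 2853 and 2014. The mdx arrays were above the controls throughout, with ratios of means of 1.92, 1.62 and 2.25. The log2 differences were 0.93, 0.70 and 1.15 (each ± 0.184; adjusted p = 0.00173, 0.00829 and 4.88e-05), and the one at 56 days was lost without control replicate 2 of that age (0.55, adjusted p = 0.0741). In controls Id2 fell by 0.92 on the log2 scale from 7 to 112 days (adjusted p = 0.000228). In mdx the change was 0.12 (adjusted p = 0.71).

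Id1 is a target of bone morphogenetic protein (BMP) signals in many cells and also a gene of endothelium. Its differences had the sign opposite to those of Id2 from 14 days on, but none passed at the main settings. At 7 days the controls read 4019, 2407 and 3398 and the mdx arrays 3644, 3838 and 4473, and the groups overlapped. At 14 days the controls read 2325, 1759.5 and 1686.5 and the mdx arrays 3046, 3766 and 3316. All mdx arrays were higher, by a ratio of means of 1.76, and the log2 difference of 0.81 ± 0.203 had an unadjusted p of 0.00039 and an adjusted p of 0.113. At 23 days the controls read 4175, 3900.1 and 4649.8 and the mdx arrays 2049, 2479 and 4064. One mdx array lay within the control range, and the difference of -0.62 ± 0.203 did not pass (adjusted p = 0.0963). Without that array, mdx replicate 3, it was -0.90 and passed (adjusted p = 0.00434), and without mdx replicate 1 it was -0.41 (adjusted p = 0.624). At 14 days Id1 passed with quantile normalization (0.90, adjusted p = 0.0325) and with array weights (0.80, adjusted p = 0.0484).

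At 28 days Id1 read 3998, 4956 and 4170.2 in controls and 2915.5, 4241.5 and 2929 in mdx, with overlap. At 56 days it read 2849, 2590.1 and 3138 against 2195, 1692 and 2103, with no overlap and controls 1.43-fold higher. At 112 days it read 1599, 1728 and 2407 against 1863, 1708 and 1571, again with overlap. The log2 differences of -0.39, -0.52 and -0.14 did not pass (adjusted p = 0.431, 0.0761 and 0.739), and with quantile normalization the one at 56 days did (-0.60, adjusted p = 0.0384). Id1 was the one gene of the 6 that fell from 7 to 112 days in both genotypes, by 0.76 in controls (adjusted p = 0.00369) and by 1.20 in mdx (adjusted p = 6.09e-05).

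Id3, like Id1 a gene of several cell types including endothelium, had the narrowest range. Its group means ran from 2541 in the controls of 112 days to 3537 in the controls of 23 days, a ratio of 1.39, and all 11 neighbouring pairs in that order overlapped. At 23 days the controls read 3628, 3034 and 3949 and the mdx arrays 2535, 2817 and 3019.8, just below them. The difference of -0.33 ± 0.125 did not pass (adjusted p = 0.166). At the other 5 ages the groups overlapped, with log2 differences between -0.10 and 0.12.

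Groups without overlap were counted against all probe sets. At 7 days 1 of 6 genes had groups apart (Myf6), where 15.4% of tested probe sets did. At 14 days it was 3 of 6 (Myog, Id1 and Id2; 12.9% of all), and at 23 days 4 of 6 (Myog, Myod1, Id2 and Id3; 22.9%). At 28 days it was 3 of 6 (21.5%), at 56 days 4 of 6 (36.9%) and at 112 days 3 of 6 (23.5%), in each case Myog, Myod1 and Id2, with Id1 added at 56 days.

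**Figure D2:**
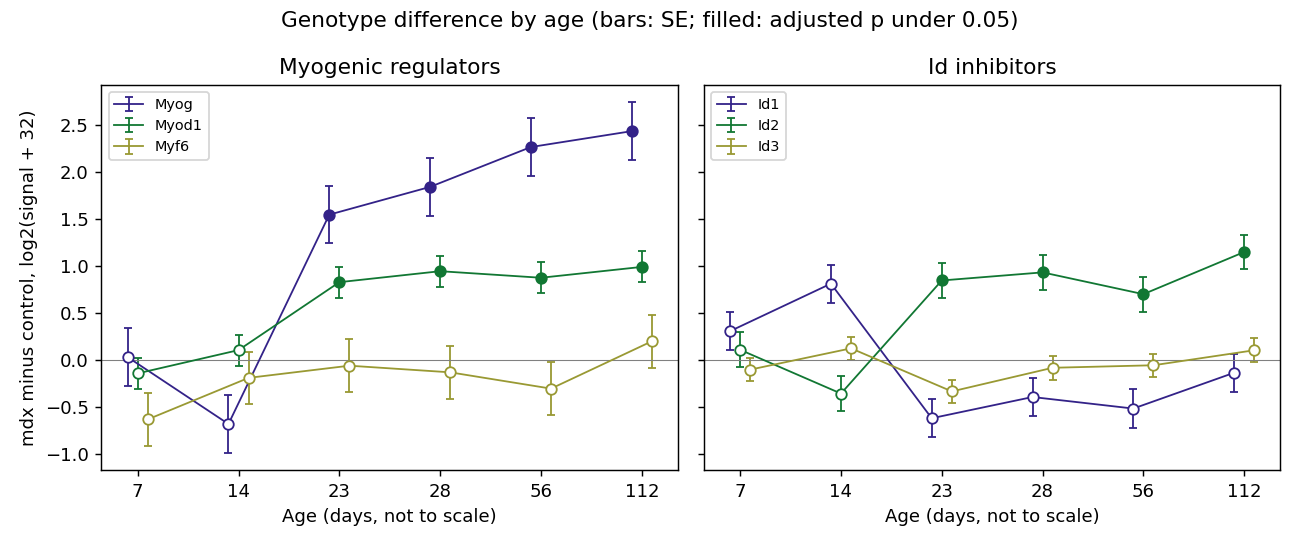
Log2 difference of mdx minus control (log2(signal + 32)) against age in days (ages evenly spaced, not to scale) for Myog, Myod1 and Myf6 (left) and Id1, Id2 and Id3 (right); bars are SE from the limma fit of 3 arrays per group, and filled points have an adjusted p under 0.05. Myog, Myod1 and Id2 are filled at each of the 4 ages from 23 days, and Id1 goes from 0.81 at 14 days to -0.62 at 23 days.

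The timing relative to 14 and 23 days was tested as the change of the genotype difference between those ages. It passed for 3 of the 6 genes, where 0.323% of all probe sets passed. The difference changed by 2.22 ± 0.431 for Myog (adjusted p = 0.0125), by -1.43 ± 0.287 for Id1 (adjusted p = 0.018) and by 1.20 ± 0.261 for Id2 (adjusted p = 0.0308). For Myod1 it was 0.72 ± 0.234 (adjusted p = 0.199; with array weights 0.78, adjusted p = 0.0445), for Id3 -0.46 (adjusted p = 0.343) and for Myf6 0.13. Each of these 3 calls was lost without some single arrays, in 1 of 12 cases for Myog, 3 for Id1 and 7 for Id2, and the values then lay between 1.95 and 2.37 for Myog, -1.71 and -1.22 for Id1, and 1.04 and 1.33 for Id2. Without control replicate 3 of 23 days 0 of 6 passed in limma, although 4 of 6 kept an unadjusted p under 0.05, and Myog then had 2.09 (adjusted p = 0.0747). Without control replicate 2 of 14 days, or without mdx replicate 1 of 23 days, 1 of 6 passed. Without the 9 arrays with Alb above 10000, Id1 had -1.16 and Id2 1.17, and neither call was kept. That run leaves out 2 of the 3 control arrays of 14 days, so it cannot show whether the calls rest on liver RNA. With quantile normalization Id1 passed, and Myog (2.09) and Id2 (1.11) did not (adjusted p = 0.0609 and 0.096).

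Set between the mean of the 4 later ages and the mean of 7 and 14 days, the change passed for 4 of the 6 genes, against 9.82% of all probe sets. It was 2.34 ± 0.264 for Myog (adjusted p = 2.03e-07), 0.93 ± 0.143 for Myod1 (adjusted p = 3.75e-05) and 1.03 ± 0.16 for Id2 (adjusted p = 4e-05). For Id1 it was -0.97 ± 0.176 (adjusted p = 0.000294). Without the arrays with Alb above 10000 it was -0.83 and did not pass, with 2 of 3 control arrays left out at 14 and at 112 days. Myf6 had 0.34 (adjusted p = 0.458) and Id3 -0.10 (adjusted p = 0.647). Between 23 and 112 days the genotype difference changed for 0 of 6 genes (0.624% of all probe sets; 2 of 6 with an unadjusted p under 0.05 in limma). A test for any dependence of the difference on age passed for Myog (F = 17.3), Id2 (9.57), Myod1 (8.73) and Id1 (7.38), with adjusted p from 9.35e-06 to 0.00463, where 8.93% of all probe sets passed. Without the arrays with Alb above 10000, the one for Id1 was lost (F = 3.49), again with those control arrays left out.

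Within each genotype, the step from 14 to 23 days went in different directions. In controls Myog fell by 1.39 on the log2 scale (adjusted p = 0.000538) and Id2 fell by 0.82 (adjusted p = 0.000684), while Id1 rose by 1.14 (adjusted p = 5.5e-05), Myf6 by 0.76 and Id3 by 0.30 (adjusted p = 0.0476). Myod1 had a change of -0.02 (adjusted p = 0.934). In mdx diaphragm Myog rose by 0.83 (adjusted p = 0.029), Myod1 by 0.70 (adjusted p = 0.00135) and Myf6 by 0.89, while Id1 had -0.29 (adjusted p = 0.255), Id2 0.38 (adjusted p = 0.0962) and Id3 -0.16 (adjusted p = 0.321). Id1 passed in mdx without replicate 3 of 23 days (-0.57, adjusted p = 0.0246) and with array weights (-0.39, adjusted p = 0.0439), and without replicate 1 of 23 days it had -0.08 (adjusted p = 0.796). So 5 of 6 passed in controls and 3 of 6 in mdx, where 47.3% and 41.5% of all probe sets passed. All arrays of 23 days had a lower median signal than all arrays of 14 days, and the median change over all tested probe sets was -0.22 in controls and -0.17 in mdx. With the median signal of each array as a covariate, 0 of 6 passed in either genotype. In limma 2 in controls and 1 in mdx then had an unadjusted p under 0.05, and not all changes became smaller. Median signal and age went together over this interval, so this fit cannot separate them. A lost call here does not show that a change rests on median signal. In controls the change was then -2.05 for Myog and -1.27 for Id2, both larger than without the covariate, and 0.72 for Id1, 0.30 for Myf6 and 0.20 for Id3. In mdx it was 0.66 for Myod1, 0.26 for Myog and 0.49 for Myf6. Leaving out single arrays of the ages compared gave 0.59 to 1.00 in controls and 0.64 to 1.26 in mdx for Myf6, and lost the call for Id3 in 4 of 6 cases in controls (0.20 to 0.43) and for Myog in 4 of 6 in mdx (0.56 to 0.98).

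**Figure D3:**
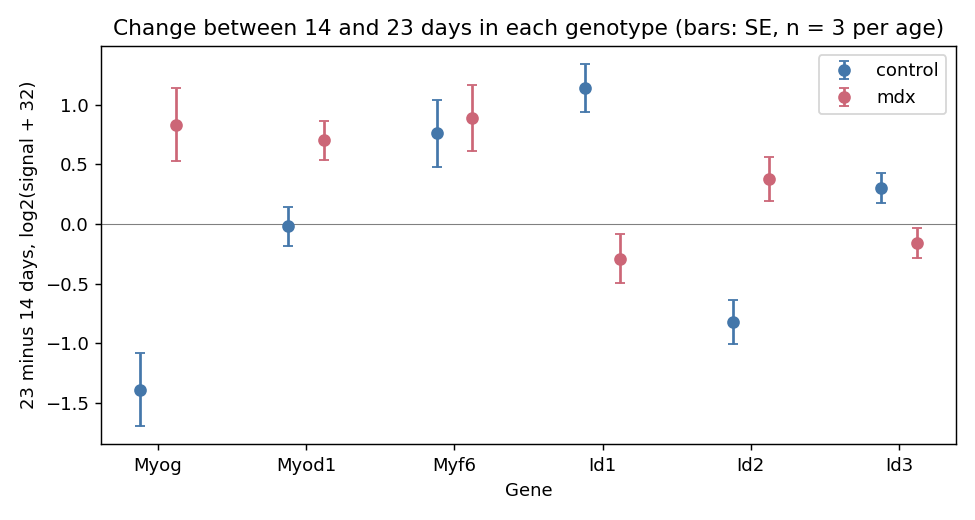
Log2 change from 14 to 23 days (log2(signal + 32)) of the 6 genes in control and in mdx diaphragm; points are limma estimates from 3 arrays per age and bars are SE. Control and mdx points lie on opposite sides of 0 for each gene but Myf6, with Myog at -1.39 in controls and 0.83 in mdx and Myod1 at -0.02 in controls. Of the genes on opposite sides, only Myog had an adjusted p under 0.05 in both genotypes.

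From 7 to 112 days, 5 of the 6 genes fell in controls (20.3% of all probe sets fell): Myog, Myod1, Id1, Id2 and Id3, the last by 0.33 (adjusted p = 0.0343), a call lost without any one of 4 of the 6 arrays. Myf6 had -0.53 (adjusted p = 0.127). In mdx diaphragm 1 of 6, Id1, fell, where 9.18% of all probe sets fell. With the 3' to 5' ratio of the Gapdh control probe sets as a covariate, 3 of 6 fell in controls and Id1 had -0.60 (adjusted p = 0.109). That ratio ran from 0.0357 to 0.971 over the arrays. The 5' probe set was thus the brighter one on every array, and the ratio is not read here as RNA integrity.

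Across the 12 group means, the levels of some members moved together. All values share the same 36 arrays, and the correlations below describe only these 12 means. Pearson's r was 0.948 between Myog and Id2, 0.872 between Myog and Myod1, 0.785 between Myod1 and Id2, 0.618 between Id1 and Id3 and -0.139 between Myog and Id1. Among 6794 tested genes with 1 symbol, the 3 most like Myog were Plp2 (0.970), C1qtnf3 (0.969), a secreted C1q and TNF related protein, and Actn1 (0.966), a non-muscle alpha-actinin. The gene most like Id2 was Myog itself, followed by the zinc transporter gene Slc39a6 (0.941) and Tnfaip8 (0.932). The 3 most like Myod1 were Grn (0.964), which encodes progranulin, Myl6b (0.944), a myosin light chain gene, and Actr3 (0.938), a gene of the actin-nucleating Arp2/3 complex.

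The other genes had other neighbours. Those of Myf6 were Mapk8 (0.960), a stress kinase gene, Acsf3 (0.939) and Use1 (0.936). Those of Id1 were Tle5 (0.922), a co-repressor gene, Nfic (0.899), a transcription factor gene, and Dlst (0.890), a gene of the citric acid cycle. For Id3 no gene exceeded 0.824, reached by Btrc, followed by the endothelial receptor gene Notch4 (0.792) and Traf5 (0.777).

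Genes around these factors were read from lists, by the brightest probe set of each gene. Beside the counts below, the share of all probe sets that rose or fell was 0.463% at 7 days and 0.194% at 14 days. It was 3.49% at 23 days, 2.96% at 28 days, 16.7% at 56 days and 12.2% at 112 days. Of 22 tested genes of early differentiation, known as targets or companions of the myogenic factors, 10 rose in mdx diaphragm at 23 days, 12 at 28 days, 15 at 56 days and 14 at 112 days. None rose at 7 or 14 days, 1 fell at 7 days (Gadd45a, -0.92) and 1 fell at 56 days (Tnnc1, -0.62). The median log2 difference of the list was 0.28 at 14 days, 0.80 at 23 days, 1.01 at 28 days, 1.47 at 56 days and 1.70 at 112 days. Myl4, the embryonic and atrial myosin light chain, rose by 4.32 ± 0.256 at 23 days (adjusted p = 6.03e-13) and by 6.15 at 112 days, and its other probe set had 0.39 (adjusted p = 0.43) and 1.14 (adjusted p = 0.000347) at those ages. Myh8, the perinatal myosin heavy chain, rose by 3.36 ± 0.297 at 23 days and by 3.83 at 112 days. Tnnt2, the cardiac and embryonic troponin T, rose by 2.29 ± 0.255 and 3.43, and Ankrd1, a stretch-induced sarcomere protein, by 3.05 ± 0.311 and 4.45.

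Of 18 tested genes of satellite cells and their Notch signals, 1 rose at 23 days (Ncam1, 0.81), 2 at 28 days (Vcam1, 1.11, and Fgfr4), 7 at 56 days and 6 at 112 days, and none fell at any age. None passed at 7 or 14 days (4 and 1 with an unadjusted p under 0.05 in limma). Pax7 and Jag1 are not analysed here, and Met and Hgf were below the filter on low signals. Myf5, the fourth factor of the MyoD family, had 0.64 at 23 days and 0.44 at 28 days without passing, and rose by 1.17 ± 0.218 at 56 days (adjusted p = 0.000348) and by 1.59 at 112 days (adjusted p = 4.64e-06). Fgfr4, a growth factor receptor of myoblasts, rose by 1.88 ± 0.363 at 28 days (adjusted p = 0.00127) and by 1.54 at 112 days. The adhesion genes Vcam1 and Ncam1 rose at 112 days by 1.54 and 0.73, where a second tested probe set of each had 0.10 (adjusted p = 0.865) and 0.44 (adjusted p = 0.427). At the earlier ages named above, that of Ncam1 had 0.09 at 23 days (adjusted p = 0.95). That of Vcam1 had -0.006 at 28 days (adjusted p = 0.999).

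Partners of the myogenic factors were counted in the same way. Of 14 tested genes of E proteins, MEF2 factors and other cofactors, 0 passed at 7 and 14 days (5 and 0 with an unadjusted p under 0.05 in limma), 1 fell at 23 days (Carm1, an arginine methyltransferase gene, -0.45), 1 rose at 28 days, 2 rose and 1 fell at 56 days, and 1 rose at 112 days. With 16.7% of all probe sets rising or falling at 56 days and 12.2% at 112 days, these counts are not read as a result for the partners. The E protein gene Tcf4 rose by 0.83 ± 0.196 at 56 days (adjusted p = 0.00371). Mef2c rose by 0.75 ± 0.204 at 112 days (adjusted p = 0.0119), where one of its other probe sets had 0.73 (adjusted p = 0.00247) and the remaining ones 0.21 and 0.27 (adjusted p = 0.688 and 0.466). Kat2b, an acetyltransferase that acts on MyoD, fell by 0.54 at 56 days (adjusted p = 0.0203), and its dimmer probe set had 0.21 (adjusted p = 0.801). Rb1, the retinoblastoma gene that Id2 is known to bind through its product, rose by 0.65 at 28 days (adjusted p = 0.044) and by 0.56 at 56 days (adjusted p = 0.0345).

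Other inhibitors of bHLH factors were counted beside the Id genes. Of 12 tested, 0 passed at 7, 14, 23 or 28 days (0, 2, 2 and 1 with an unadjusted p under 0.05 in limma) and 1 rose at 56 and at 112 days. Msc, which encodes the repressor musculin, rose by 1.19 ± 0.378 at 56 days (adjusted p = 0.0277), and Snai1, a repressor that binds E-boxes, rose by 1.70 ± 0.372 at 112 days (adjusted p = 0.00185). Of 19 tested genes of the BMP and SMAD pathway, which acts upstream of Id genes, 0 passed at 7, 14, 23 or 28 days (3, 0, 2 and 2 with an unadjusted p under 0.05). At 56 days 3 rose and 1 fell, and at 112 days 2 rose and 1 fell, where 16.7% and 12.2% of all probe sets rose or fell. The counts of these inhibitors and of the BMP and SMAD genes are not read as a result for either list. Bmp6, a ligand, fell by 1.63 ± 0.267 at 112 days (adjusted p = 6.97e-05) and by 1.20 in its other probe set (adjusted p = 0.0105). At the same age Fst, which encodes the ligand trap follistatin, rose by 1.93 ± 0.361 (adjusted p = 0.000357) and Tgfb1, the gene of transforming growth factor beta 1, by 1.48 ± 0.42 (adjusted p = 0.0165). Bmp4, another ligand, rose by 0.75 at 56 days (adjusted p = 0.00224), where its other probe set had 0.09 (adjusted p = 0.853).

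Genes of cell division were read because myogenin acts in differentiation, during which muscle cells leave the cell cycle. Of 18 tested, 0 rose at 7, 14 and 23 days (1, 0 and 5 with an unadjusted p under 0.05 in limma), 2 at 28 days, 9 at 56 days and 2 at 112 days, and none fell. With 7.65% of all probe sets rising at 112 days, the count there is not read as a result for the list. Top2a, a topoisomerase of dividing cells, rose by 2.18 ± 0.522 at 56 days (adjusted p = 0.00398), with Ccnb2 (1.26), the gene of a mitotic cyclin, and Mcm3 (1.04), the gene of a replication helicase subunit. Birc5, which encodes survivin, rose by 1.22 at 28 days and by 1.45 at 112 days (adjusted p = 0.0316 and 0.00245), and Mcm4, another helicase subunit gene, by 0.96 at 112 days (adjusted p = 0.0143).

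**Figure D4:**
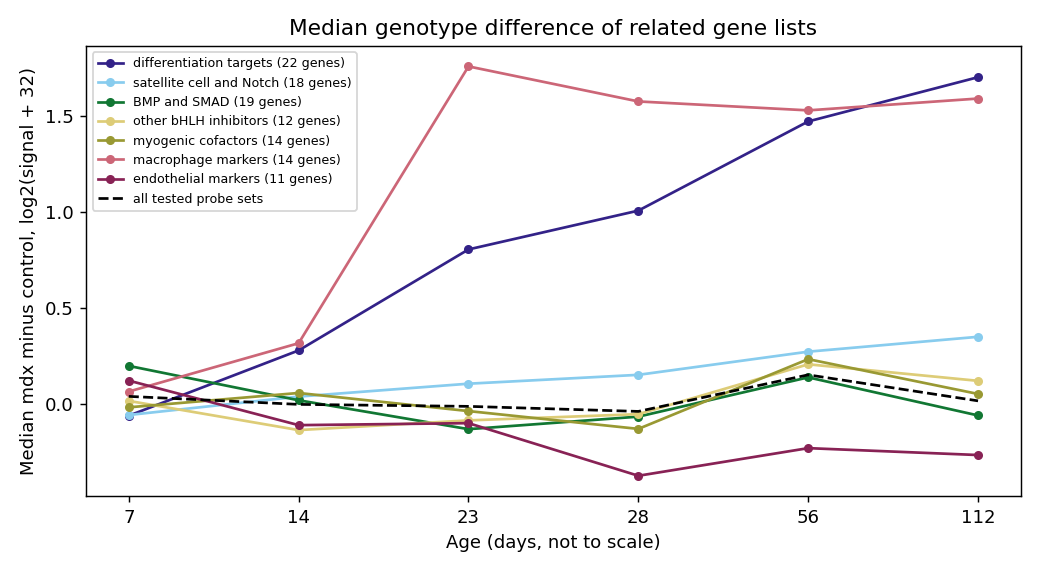
Median log2 difference of mdx minus control (log2(signal + 32)) against age in days (ages evenly spaced, not to scale) for gene lists, with the number of tested genes in the legend; the dashed line is the median over all 9291 tested probe sets. Early differentiation genes reach 1.70 and macrophage markers 1.59 at 112 days, while BMP and SMAD genes, other bHLH inhibitors and cofactors stay within 0.25 of 0.

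Markers of other cell types also differed between genotypes. Of 14 tested macrophage markers, 0 rose at 7 days, 2 at 14 days (Ctss and Lgals3), 13 at 23 days, 10 at 28 days, 12 at 56 days and 11 at 112 days, and none of the 15 on the array was at 0. At 14 days their summed signal was 19589 to 22837 in control and 23954 to 31804 in mdx arrays. At 23 days it was 17707 to 20947.5 in control and 52135 to 92383 in mdx arrays. At 112 days it was 22193 to 23057 against 79947 to 86405. The lysozyme gene Lyz2 rose by 1.79 ± 0.197 and the cathepsin gene Ctss by 2.72 ± 0.21 at 23 days, with Tyrobp (2.22), an adaptor of myeloid receptors, and the galectin gene Lgals3 (3.53). Id2 is also expressed by leukocytes, and the part of these cells in its difference was not tested.

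Of 10 tested fibroblast and matrix genes, 1 rose at 23 days, 1 at 28 days, 4 at 56 days and 6 at 112 days. Over the mean of ages 4 rose and 1 fell, where 17.8% of all probe sets rose or fell. The median log2 difference of the list was -0.11 at 23 days, 0.01 at 28 days, 0.44 at 56 days and 1.47 at 112 days. Postn, which encodes periostin, rose by 0.99 ± 0.163 at 23 days (adjusted p = 0.000204) and by 3.69 at 112 days. Col1a2, Col3a1 and Lum rose by 1.65, 1.74 and 1.54 at 112 days, and a second probe set of Col1a2 had -0.02 there (adjusted p = 0.969). Their part in the results above was not tested.

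Endothelial markers were read because Id1 and Id3 are also expressed in endothelium. Of 11 tested, 0 passed at 7, 14, 23 and 28 days (0, 1, 0 and 4 with an unadjusted p under 0.05 in limma), 3 fell in mdx at 56 days (Vwf, Tek and Icam2) and 4 at 112 days (Vwf, Tek, Flt1 and Cdh5). Vwf, the von Willebrand factor gene, fell by 0.97 at 56 days (adjusted p = 0.000918) and Tek, the angiopoietin receptor gene, by 0.74 (adjusted p = 0.0101). Flt1, a receptor gene for vascular growth factors, fell by 0.63 at 112 days and by 1.59 in its other probe set. Emcn, the endomucin gene, fell by 0.21 over the mean of ages, where one of its other probe sets had 0.08 and another -0.33. The summed signal of the 11 markers at 14 days was 32834 to 38220 in control and 30407 to 33128 in mdx arrays, and 31514 to 36051 against 31106 to 32614 at 23 days. From 14 to 23 days in controls, the median log2 change of the 11 markers was 0.15 against -0.22 over all tested probe sets, with 1 rising, 1 falling and 6 at an unadjusted p under 0.05 in limma. In mdx diaphragm it was 0.11 against -0.17, with 0 rising, 2 falling and 2 at an unadjusted p under 0.05 in limma. None of the 11 was at 0. The part of endothelial cells in the values of Id1 and Id3 was not tested.

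Of 10 tested liver genes and 5 tested lymphoid genes, 0 passed between genotypes at any age (limma; up to 2 with an unadjusted p under 0.05). The summed liver signal ran from 3662 to 114262 over the arrays, with 12145 to 70277 in control and 13361 to 64924 in mdx arrays of 14 days and at most 11328 at 23 days. At 56 days it was 11210 to 43254 in control and 8685 to 11111 in mdx arrays, without overlap. At 112 days it was 11730 to 114262 against 9915.5 to 30918. The median log2 difference of the 10 liver genes was -1.70 at 56 days and -1.76 at 112 days. The lack of calls therefore does not show equal liver RNA in the 2 genotypes. The albumin gene Alb had a log2 difference between genotypes of -0.30 ± 1.47 at 23 days, and Cyp2e1, another liver gene, had -0.35. Of the lymphoid genes, the B cell genes Cd79a and Ms4a1 had 0.80 and 0.64. The other probe set of Ms4a1 had 1.66 at 23 days (limma, adjusted p = 0.178). Lymphoid signals were low, and 0 of the 10 lymphoid genes on the array lay above 374.5 on all 36 arrays. Of 13 tested fibre genes, 0 passed at 23 days (3 with an unadjusted p under 0.05 in limma). Their summed signal at 23 days was 228546 to 273701 in control and 174628 to 213899 in mdx arrays, without overlap. At the other ages the ranges overlapped. The median log2 difference of the fibre genes was 0.34 at 7 days, -0.09 at 14 days and -0.38 at 23 days. It was -0.23 at 28 days, -0.64 at 56 days and -0.16 at 112 days. The part of fibre RNA in the results above was not tested. Ryr1, the calcium release channel gene, fell by 0.63 at 56 days (adjusted p = 0.0199). Myh4, a fast myosin heavy chain gene, fell by 0.40 over the mean of ages (adjusted p = 0.00257), where its other probe set had -0.02.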

How the data were processed

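The authors' deposited table gives linear intensities per probe set in 36 columns, each an array. The labels name the array maker's standard protocol; no scan software is named there. On each array the mean of the values without the extreme 2% at both ends was 1499.2 to 1499.7, so the deposited intensities were already scaled and were used as they stand. No 2 arrays were identical.

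The 66 control probe sets were left out, and 9291 probe sets with a signal above percentile 40 (374.5) on at least 3 arrays were tested on log2(signal + 32), which understates changes of dim genes. One limma model (limma 3.58.1, R 4.3.3) with 12 group means was fitted to all 36 arrays, with moderated variances, 24 residual degrees of freedom and Benjamini-Hochberg adjustment over all tested probe sets in each comparison. The script was tested on simulated data. Precision is limited by 3 arrays per group. Comparisons that share control arrays are not independent. The members and gene lists were chosen with earlier results of these data known. Of each list, up to 4 genes that passed at any age or over the mean of ages are named, in order of adjusted p over that mean, or the 2 brightest where none passed; for each member, the 3 genes with the highest Pearson r over the 12 group means are named. Carm1, Gadd45a, Tnnc1, Mcm4, Icam2 and Cdh5 were named after their values were seen, and Ckm as an example. Symbols come from the platform annotation (1 symbol for 10833 probe sets, several for 396, none for 1193).

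Alternatives were pseudocounts of 8 and 128, a stricter filter (percentile 60) or none, array weights, quantile normalization, the median signal or Gapdh ratio as covariate, leaving out arrays with Alb above 10000, only the arrays compared, a replicate block, and leaving out each array in turn. Replicate numbers did not pair samples: in 1 of 18 pairs did same-numbered arrays deviate together with r over 0.1 (range -0.225 to 0.147).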

Additional observations from a re-analysis of the deposited data

Results flagged for a closer look

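For 7 results the genotype difference itself differed between ages by an interaction term in limma. Between 14 and 23 days the log2 difference of mdx minus control changed by 2.22 for Myog, by -1.43 for Id1 and by 1.20 for Id2. Between the mean of 7 and 14 days and the mean of the 4 later ages it changed by 2.34 for Myog, 0.93 for Myod1, 1.03 for Id2 and -0.97 for Id1.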

How the results depend on the processing

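Of 2124 recomputed values of the 90 results on single genes, 2051 kept their direction and their side of the threshold, 64 lost and 9 gained a call, and none with a call changed direction; 26 values without a call changed sign. At 28 and 112 days and over the mean of ages, 3 of 6 genes passed under every alternative run. With the replicate block 40 of 90 results passed, as without it, and no call changed. At 14 days 1 of 6 genes, Id1, passed with quantile normalization (0.90) or array weights (0.80). At 56 days Id1 passed with quantile normalization (-0.60). At 23 days 5 passed with array weights, Id1 (-0.73) and Id3 (-0.35) being added. For the change of the difference from 14 to 23 days, 1 of 6 passed with quantile normalization and with only the arrays compared. Without the arrays with Alb above 10000 that change was -1.16 for Id1 and 1.17 for Id2, with 2 of 3 control arrays of 14 days left out. From 14 to 23 days 3 passed in controls with quantile normalization, and 0 in either genotype with the median signal as covariate. From 7 to 112 days 3 passed in controls with the Gapdh ratio as covariate. Each covariate went together with age in its comparison, so these fits cannot separate it from age. Leaving out 1 array at a time gave 0 to 3 for the change of the difference, 3 to 5 in controls and 1 to 3 in mdx from 14 to 23 days, and 2 to 4 at 23 days. Single calls lost with 1 array left out came, for the change of the difference, without control replicate 2 of 14 days, control replicate 3 or mdx replicate 1 of 23 days for Id1, and without these or control replicate 1 or mdx replicate 2 or 3 of 14 days or control replicate 2 of 23 days for Id2. In controls from 14 to 23 days they came without replicate 1 or 2 of either age for Myf6, and without replicate 1 or 2 of 14 days or 1 or 3 of 23 days for Id3. In mdx they came without replicate 1 of 14 days or any of 23 days for Myog, and without replicate 1 of 14 days or 2 or 3 of 23 days for Myf6, and for Id3 from 7 to 112 days without control replicate 2 or 3 of 7 days or 1 or 2 of 112 days. With only the arrays compared, Id2 at 23 days (0.84) and Myod1 at 56 days (0.87) did not pass (adjusted p = 0.0627 and 0.0526). The lowest counts came without control replicate 3 of 23 days for the change of the difference, without control replicate 1 or 2 of 14 days or 1 of 23 days in controls, and without mdx replicate 1 of 14 days or 2 of 23 days in mdx. The cause of these shifts was not tested.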
